A study of Mus musculus with 19 samples.

Results

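The sites described here are the places on the genome of mouse embryonic stem cells (ESC) where an Oct4 ChIP-seq peak shared at least 1 bp with a Ring1B ChIP-seq peak, both called in cells with a control hairpin. They numbered 992 of the 1462 Oct4 peaks (67.9%, 95% Wilson interval 65.4 to 70.2), which left 470 Oct4 peaks without Ring1B. The 992 sites, called members below, lay in 977 of the 11916 control Ring1B peaks (8.20%), and 15 of those Ring1B peaks held 2 members each. The members were chosen by this overlap of the control Oct4 and Ring1B lists, so it is a description and not a result. Peak positions here are in the mm9 build, and no peak heights were given in the files.

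The study asked what the nucleoporin Nup153, a protein of the nuclear pore basket, does to gene silencing in ESC. Its 19 samples comprised 5 RNA-seq libraries, 8 ChIP-seq libraries and 6 DamID libraries. Neural progenitors, labelled NeuP, carried no hairpin, were derived through embryoid bodies and Noggin, and have no parental line named in their labels. Nup153 knockdown ESC of the E14 line carried a lentiviral hairpin, either hairpin 2 or hairpin 4, and control ESC of the same line carried a non-target hairpin. The ESC were grown on irradiated fibroblast feeders and selected in puromycin. DamID, which marks DNA that a fused bacterial methylase has touched, was done in E14 ESC without a hairpin, with Nup153, Oct4 or GFP fused to the methylase under a heat shock promoter. RNA was measured in 2 NeuP libraries, 1 library per Nup153 hairpin and 1 control library. Peaks came from 1 library per condition, except that each DamID list stands for 2 replicates, so no peak comparison below has a replicate error.

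Oct4, encoded by Pou5f1, is a POU-domain transcription factor that binds an octamer element, often beside the factor Sox2, at enhancers of genes active in pluripotent cells. Ring1B, encoded by Rnf2, is the ubiquitin ligase subunit of Polycomb repressive complex 1 (PRC1), which marks histone H2A and is known for keeping developmental regulators silent. Cbx7 is a chromodomain subunit of canonical PRC1 in ESC that reads the methyl mark laid by Polycomb repressive complex 2 (PRC2).

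The targeted gene Nup153 had 20.9 and 17.4 FPKM (fragments per transcript length and depth) in hairpins 2 and 4, against 39.4 FPKM in control ESC, a difference that was not called (adjusted p = 0.897, limma). Nup153 had 12.8 and 29.1 FPKM in NeuP, so 1 NeuP library was below both hairpin libraries. The spread between these NeuP libraries enters that p-value, which therefore does not measure the spread between the hairpins alone. Rnf2 had 30.7 and 38.4 FPKM in the NeuP libraries, 54.6 and 58.8 FPKM in the hairpin libraries and 58.6 FPKM in control ESC. Cbx7 had 2.07 and 1.84 FPKM in NeuP, 45.2 and 49.1 FPKM in the hairpin libraries and 38.1 FPKM in control ESC. The RNA libraries held between 24.3 and 32.2 M fragments. Depth was uneven in ChIP. The Ring1B libraries held 33.2 M tags in NeuP, 30.8 and 9.95 M in hairpins 2 and 4, and 4.99 M in control ESC, and the Oct4 libraries 20.1 M in hairpin 2 and 24.6 M in control ESC. A list from a deeper library can hold more weak peaks, so gains and losses between lists cannot be told apart from depth.

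Most members lay away from transcript starts, and 9 genes had their start inside a Ring1B peak that held a member. Among the promoters of genes in RefSeq (GRCm38.p6 build, 250 bases before to 50 after the start), 3 belong to genes that had a member centred in that window and have 1 promoter in the table. They are printed here because the member lay just upstream of the start, without covering it. Each is given from 5′ to 3′ on the strand of its gene, and capitals mark a match to the octamer ATGCAAAT on either strand.
Pipox: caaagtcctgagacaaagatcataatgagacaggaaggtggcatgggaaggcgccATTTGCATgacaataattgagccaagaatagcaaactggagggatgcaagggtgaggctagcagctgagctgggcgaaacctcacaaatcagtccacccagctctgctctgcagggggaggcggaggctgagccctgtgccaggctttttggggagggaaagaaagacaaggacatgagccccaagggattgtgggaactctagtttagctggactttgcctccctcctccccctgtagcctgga
Ephb4: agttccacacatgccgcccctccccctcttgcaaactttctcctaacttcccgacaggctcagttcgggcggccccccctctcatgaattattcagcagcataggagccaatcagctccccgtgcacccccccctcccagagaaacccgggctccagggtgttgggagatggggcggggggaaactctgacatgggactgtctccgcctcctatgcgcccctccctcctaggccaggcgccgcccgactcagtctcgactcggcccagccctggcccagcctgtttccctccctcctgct
Celrr: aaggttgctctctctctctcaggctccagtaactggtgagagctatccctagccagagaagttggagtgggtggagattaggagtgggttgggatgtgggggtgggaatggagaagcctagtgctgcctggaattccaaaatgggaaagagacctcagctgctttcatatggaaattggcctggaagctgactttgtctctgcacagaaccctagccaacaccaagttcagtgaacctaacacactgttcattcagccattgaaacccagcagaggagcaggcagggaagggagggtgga

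The Pipox promoter (chr11:77893823-77894122, minus strand, GRCm38.p6) held 1 octamer, ATTTGCAT, whose first base was 195 bases before the start (position -195). Its member was centred 200.5 bp before the mm9 start, at chr11:77707487-77707663, and the builds were not aligned with each other. The Ephb4 promoter (chr5:137349859-137350158, plus strand) held no octamer and 14 CpG, and its member was centred 202.5 bp before the mm9 start. The Celrr promoter (chr1:121087155-121087454, plus strand) held no octamer and no CpG, and its member was centred 104.5 bp before the mm9 start. All 3 members also had a Ring1B peak in NeuP, and no Cbx7 peak.

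Motif letters in promoters were counted for every gene with a member within 2 kb of its start, of which 50 of 70 matched the RefSeq table with 72 promoters. The octamer was in 3 of the 72 (4.17%, Wilson interval 1.43 to 11.5), in 8 of 83 promoters (9.64%, 4.97 to 17.9) of genes with an Oct4 peak without Ring1B within 2 kb, and in 570 of all 32851 promoters (1.74%). The Sox element CATTGTT, on either strand, was in 2 of the 72 (2.78%) and in 1243 of all promoters (3.78%). The 72 promoters held a median of 17.5 CpG, the 83 promoters 20, and all promoters 7. The difference between the sets was not tested. No letters under the peaks themselves were read.

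A microRNA cluster stood beside 1 member. The member at chr7:3213600-3213776 (mm9) was centred 4939.5 bp upstream of Mir290a, the first hairpin of the miR-290 cluster, which makes microRNAs that are abundant in mouse ESC. This member sat in a Ring1B peak of 2130 bp, kept its Oct4 peak in hairpin 2 and its Ring1B peak in both hairpins, had a Cbx7 peak, and had no Ring1B peak in NeuP. Mature sequences of the cluster from RefSeq are shown because several share a seed, bases 2 to 8, which is in capitals.
mmu-miR-290a-3p: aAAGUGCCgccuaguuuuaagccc
mmu-miR-291a-3p: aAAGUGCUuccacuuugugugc
mmu-miR-294-3p: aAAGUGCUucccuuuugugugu
mmu-miR-295-3p: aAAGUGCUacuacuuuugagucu
mmu-miR-291b-3p: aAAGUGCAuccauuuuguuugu
mmu-miR-293-3p: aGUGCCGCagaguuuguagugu

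The seed AAGUGCU was common to miR-291a-3p, miR-294-3p and miR-295-3p, and miR-290a-3p and miR-291b-3p differed from it in the last base of the seed. The RNA libraries were made from polyadenylated RNA, so reads over these hairpins come from the primary transcript and not from mature microRNA. Mir290a was at 0 and 0 FPKM in NeuP, 13.3 and 10.5 FPKM in hairpins 2 and 4, and 4.33 FPKM in control ESC, from 34 and 22 reads in the hairpin libraries and 9 reads in control ESC. Mir291b, with more reads, was at 0 and 0 FPKM in NeuP, 46.1 and 42.8 FPKM in hairpins 2 and 4, and 23.7 FPKM in control ESC. Mir295 was at 0 and 0 FPKM in NeuP, 25.0 and 38.1 FPKM in hairpins 2 and 4, and 19.7 FPKM in control ESC. Every hairpin of the cluster that had reads, 7 of 9, was above control ESC in both Nup153 hairpins and listed at 0 in both NeuP libraries.

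How far a member can lie from the middle of its Ring1B peak is limited by the overlap rule and both peak widths. Whether members lay nearer the middle than these limits give was not tested. The distance between the centre of the Oct4 peak and that of the Ring1B peak had a median of 88.5 bp (quartiles 40.9 and 159 bp), and it was at most 100 bp in 548 members (55.2%). The whole Oct4 peak of 177 bp fell inside the Ring1B peak in 977 members (98.5%). Ring1B peaks at members had a median width of 723.5 bp and reached 7434 bp at Tfap2a. Counted by Ring1B peak, the 977 with Oct4 had a median width of 689 bp and the 10939 without Oct4 had 501 bp, a width shared by 228 (23.3%) of the peaks with Oct4 and 6711 (61.3%) of those without. A wider Ring1B peak has more bases with which to meet the overlap rule, and the part of this in the width difference was not tested. At the edge of the rule, the smallest overlaps were 10 bp at the member nearest to Bet1, 55 bp at that nearest to 1700104L18Rik and 68 bp at those nearest to Abcg1 and Ell. The Oct4 peaks just outside it were 60 bp (Dbx1), 76 bp (Cadps), 78 bp (Med13l) and 97 bp (Atp9a) from a Ring1B peak. Only 22 of the 470 Oct4 peaks without Ring1B were within 500 bp of a Ring1B peak, and their median gap was 43109 bp.

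**Figure D1:**
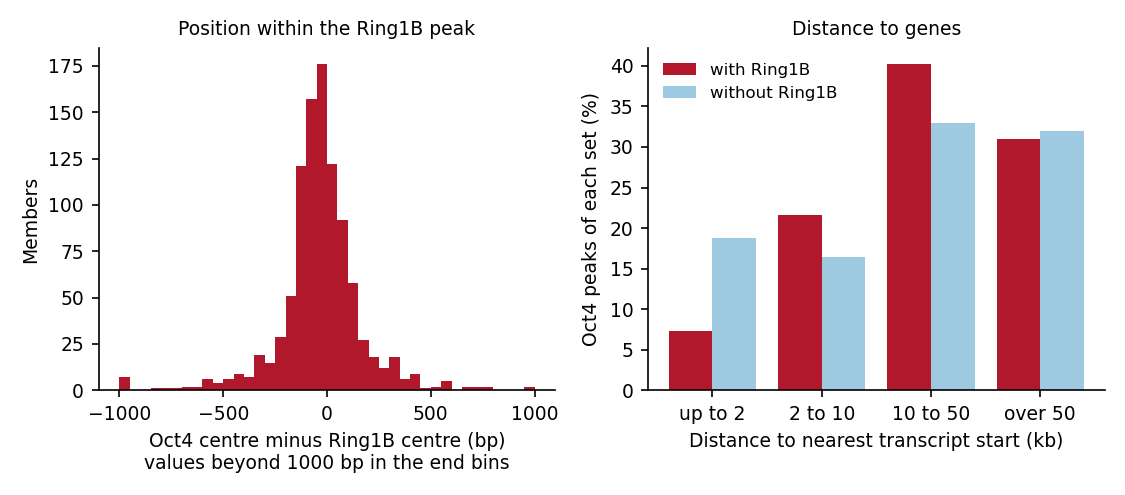
Left, the number of members by the signed distance in bp between the Oct4 and the Ring1B peak centre, in bins of 50 bp, with values beyond 1000 bp in the end bins. Right, the share in percent of Oct4 peaks with Ring1B (red, n = 992) and without Ring1B (blue, n = 470) by distance in kb to the nearest transcript start. The overlap rule and the peak widths limit how far apart the centres can lie. Of the members 7.26% lie within 2 kb of a start, against 18.7% of the Oct4 peaks without Ring1B.

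Position relative to genes was read from the transcript starts of the deposited expression table. Of the members, 72 (7.26%) were centred within 2 kb of a start, 214 (21.6%) from 2 to 10 kb, 399 (40.2%) from 10 to 50 kb and 307 (30.9%) farther away. Their median distance to a start was 25175 bp, against 21296 bp for Oct4 peaks without Ring1B. Within 2 kb of a start 45.0% of the Oct4 peaks had Ring1B (72 of 160, Wilson interval 37.5 to 52.7), a smaller share than from 2 to 10 kb (73.5%, 68.2 to 78.3), from 10 to 50 kb (72.0%, 68.1 to 75.6) or beyond (67.2%, 62.7 to 71.3). Ring1B peaks with Oct4 lay within 2 kb of a start in 70 of 977 cases (7.16%) and those without Oct4 in 1657 of 10939 (15.1%). Members inside a transcript numbered 385 (38.8%), close to the 39.1% of the Oct4 peaks without Ring1B. The table gives transcript bounds only, so exons and introns were not separated.

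Most members had a Ring1B peak in the knockdown too. A Ring1B peak overlapped 846 members (85.3%, Wilson interval 82.9 to 87.4) in hairpin 2 and 839 members (84.6%, 82.2 to 86.7) in hairpin 4. In both hairpins it was present at 766 members (77.2%), and in neither at 73 (7.36%). The lists of the hairpins come from libraries with 30.8 and 9.95 M tags, and the shares at members differed by less than their intervals. Ring1B peaks without Oct4 were overlapped less often, 41.6% (40.7 to 42.6) of 10939 in hairpin 2 and 42.0% (41.1 to 42.9) in hairpin 4, against 85.5% and 85.3% of the 977 with Oct4. Width and position differed between these sets too. Away from starts, beyond 2 kb, the shares were 85.8% and 85.9% with Oct4, against 38.0% and 42.0% without Oct4. Within 2 kb of a start they were 81.4% and 77.1% with Oct4, against 61.9% and 41.7% without Oct4. The difference in width was not adjusted for.

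**Figure D2:**
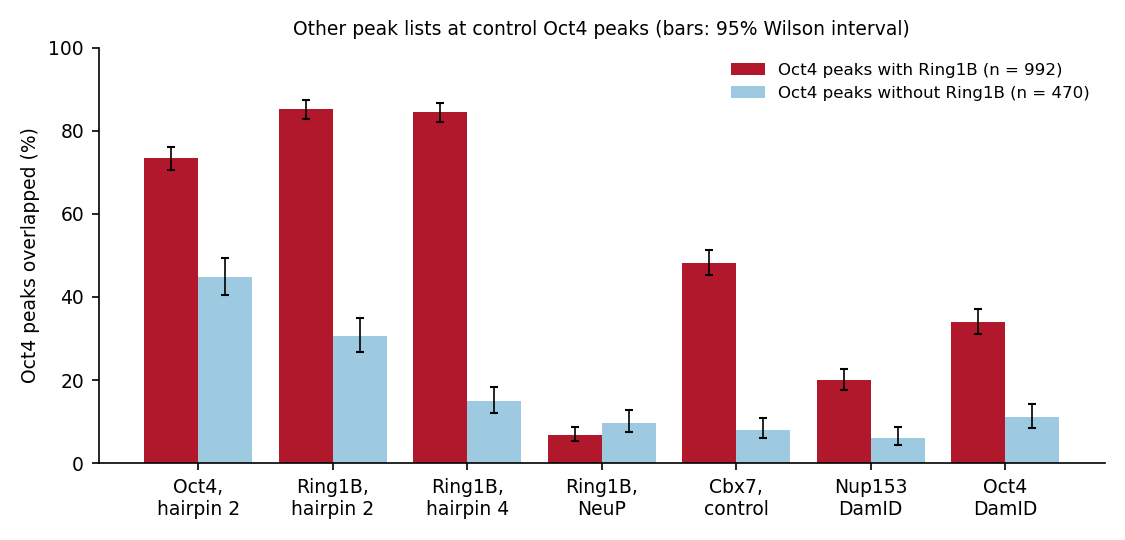
Share in percent of control Oct4 peaks that share at least 1 bp with a peak of each other list, for those with Ring1B (red, n = 992) and without Ring1B (blue, n = 470) in control ESC. Error bars are 95% Wilson intervals, which cover counting error only, and the lowest of the red bars is that for Ring1B in NeuP, at 6.85%.

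The Oct4 peak itself was called again in hairpin 2 at 729 members (73.5%, Wilson interval 70.7 to 76.1), against 211 (44.9%, 40.5 to 49.4) of the Oct4 peaks without Ring1B. Where it was called in both libraries, its centre had moved by a median of 25 bp. It was kept at 609 of the 766 members (79.5%) with Ring1B in both hairpins and at 120 of the other 226 (53.1%). Hairpin 2 had more Oct4 peaks in all, 1598 against 1462 in control ESC. Oct4 was not mapped in hairpin 4 in the data used here.

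Few of the members had Ring1B in NeuP. A NeuP Ring1B peak overlapped 68 members (6.85%, Wilson interval 5.44 to 8.60) and 46 (9.79%, 7.42 to 12.8) of the Oct4 peaks without Ring1B, although the NeuP list held 14556 peaks from 33.2 M tags. Counted by Ring1B peak, 7.88% of those with Oct4 and 7.39% of those without were overlapped in NeuP, and these intervals overlap. The members within 2 kb of a start had a NeuP peak more often, 12 of 72 (16.7%, 9.80 to 26.9), than those from 10 to 50 kb away (4.76%, 3.07 to 7.32). The shares from 2 to 10 kb (7.01%, 4.29 to 11.2) and beyond 50 kb (7.17%, 4.78 to 10.6) had intervals that overlapped that within 2 kb. Ring1B peaks without Oct4 also had a NeuP peak at 17.6% within 2 kb of a start and at 5.57% farther away, close to the 17.1% and 7.17% of Ring1B peaks with Oct4. The 12 members were nearest to Capzb, Celrr, Cpt1a, Ell, Ephb4, Gadd45g, Gpr19, Mapk4, Mir8120, Mir92b, Phc1 and Pipox, a group named after its values were seen, and only that at Mir8120 had Cbx7. The file headers name an ESC library called IgG as the background of every ChIP list, NeuP included, and the labels list an input control, without saying whether these are the same library.

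Cbx7 occupied 479 members (48.3%, Wilson interval 45.2 to 51.4) and 38 (8.09%, 5.95 to 10.9) of the Oct4 peaks without Ring1B. Of Ring1B peaks with Oct4, 49.5% had Cbx7, against 24.0% of those without Oct4. Members with Cbx7 kept Ring1B in both hairpins in 437 of 479 cases (91.2%, 88.4 to 93.4) and those without Cbx7 in 329 of 513 (64.1%, 59.9 to 68.2). The Oct4 peak was kept in hairpin 2 at 79.3% of members with Cbx7 and at 68.0% of those without, and a NeuP Ring1B peak was present at 4.59% of members with Cbx7 and at 8.97% of those without. Cbx7 was less common at members within 2 kb of a start (33.3%) than from 10 to 50 kb away (51.1%). Of the 73 members without Ring1B in either hairpin, 8 had Cbx7.

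Nup153 and Oct4 DamID regions, 2501 bp wide in the median, overlapped 199 members (20.1%, Wilson interval 17.7 to 22.7) and 338 members (34.1%, 31.2 to 37.1). Among the Oct4 peaks without Ring1B the counts were 29 (6.17%, 4.33 to 8.72) for Nup153 and 52 (11.1%, 8.54 to 14.2) for Oct4. The members touched by Nup153 DamID were mostly touched by Oct4 DamID as well, 176 of 199 (88.4%), against 162 of the other 793 (20.4%). Presence of Nup153 DamID went with little difference in what was kept in the knockdown. Ring1B was kept in both hairpins at 159 of 199 members (79.9%) with it and at 607 of 793 (76.5%) without it, and Oct4 in hairpin 2 at 73.9% and 73.4%, with overlapping intervals.

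Scored against Oct4 in hairpin 2, Ring1B in each hairpin, Cbx7 and both DamID lists, 71 members (7.16%) were in all 6 lists and 26 (2.62%) in none. The 71 included sites nearest to Fbxo15, Foxd3, Klf2, Jarid2, Dll1, Tfe3, Il6st, Mcl1 and Rbpj, and a pair inside Esrrb, 77352.5 and 80149.5 bp from the start of its deposited transcript. They are named here from known roles, after the list was seen. Tfe3, a transcription factor whose exit from the nucleus accompanies loss of pluripotency, had its site 1132.5 bp downstream of its start at chrX:7342114-7342290. Il6st, the co-receptor gp130 through which LIF signals, had its site 1447.5 bp upstream of its start at chr13:113252743-113252919.

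A gene was assigned to a member when its start was the nearest and within 50 kb, which gave 638 genes for 685 members. Of these genes 44 had at least 2 members, and Mreg, Mycn and Ttc39b had 3 each. At least 1 FPKM in 1 or more libraries was reached by 494 of the 638 genes, and these were tested. A gene seen in 1 cell type only passes that filter through it, and the counts below do not stand for all 638. Of the other 144 genes, 47 were listed at 0 in every library. In control ESC 281 genes were at 10 FPKM or more and 39 at 100 FPKM or more, while 184 were under 1 FPKM. The median over tested member genes was 14.2 FPKM in control ESC, against 7.15 FPKM for genes near Oct4 peaks without Ring1B only and 7.98 FPKM for all tested genes.

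Genes near members were more often lower than higher in NeuP relative to control ESC. With limma on log2(FPKM + 1) over all 13750 tested genes, at a Benjamini-Hochberg adjusted p under 0.05, 185 of the 494 member genes fell (37.4%) and 86 rose (17.4%). Over all tested genes 24.9% fell and 18.3% rose, so the share that rose was near the background and the share that fell was above it. The median difference, NeuP minus control on the log2(FPKM + 1) scale, was -0.65 for member genes and -0.26 for all genes. With genes listed at 0 throughout a group held at 3 reads over that group, the medians were -0.64 and -0.26. Among the 221 tested genes near Oct4 peaks without Ring1B only, 53 (24.0%) fell and 56 (25.3%) rose, with a median of -0.10. The differences between these sets were not tested. All 3 ESC libraries and both NeuP libraries entered the fit, in which the lone control library was assumed to vary like the others. Without hairpin 2, or without hairpin 4, the same comparison called 78 member genes lower (15.8%) and 3 higher (0.607%), while over all 13750 genes 1508 were lower and 319 higher (2.32%) without hairpin 2, and 1504 lower (10.9%) and 318 higher (2.31%) without hairpin 4.

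**Figure D3:**
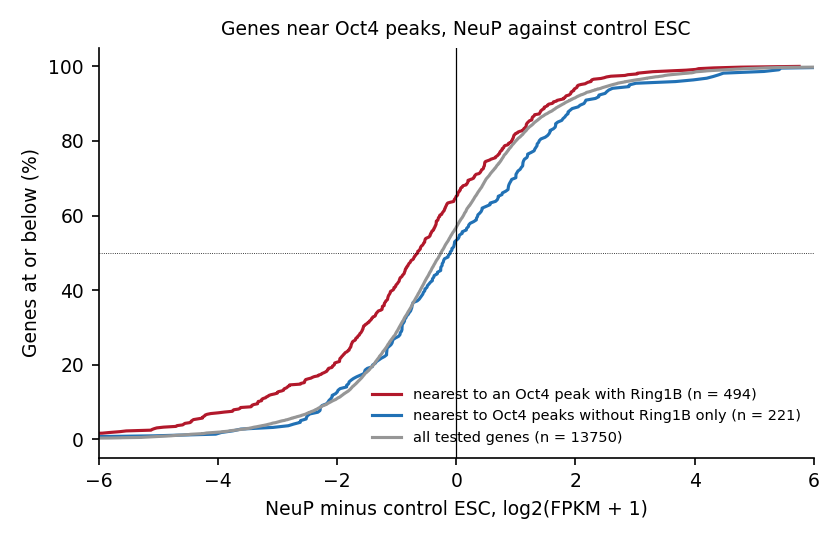
Cumulative share in percent of tested genes by their NeuP minus control ESC difference on the log2(FPKM + 1) scale, for genes nearest to a member (red, n = 494), genes near Oct4 peaks without Ring1B only (blue, n = 221) and all tested genes (grey, n = 13750). The red line lies to the left of the others below 0 and crosses 50% at -0.65, against -0.10 for the blue line and -0.26 for the grey line.

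Level in control ESC moved with these shares. At 1 to 10 FPKM in control ESC, 57 of 173 member genes fell (32.9%) and 49 rose (28.3%), against 27.5% and 20.3% of all genes at that level. At 10 to 100 FPKM, 98 of 242 member genes fell (40.5%) and 18 rose (7.44%), against 27.0% and 5.75% of all genes. At 100 FPKM or more, 21 of 39 member genes fell (53.8%) and 1 rose (2.56%), against 41.9% and 1.09% of all genes. At each of these levels the share of member genes that rose was above that of all genes. Tested genes under 1 FPKM in control ESC are not in these groups. The level and the difference share the control library, and the part of level in the shares was not tested.

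The shares also varied with how the members lay. Genes with 2 or more members fell in 21 of 39 tested cases (53.8%) and rose in 7, with a median of -1.40, against 164 of 455 (36.0%) and a median of -0.59 for genes with 1 member. Genes whose nearest member was within 2 kb of the start fell in 25 of 61 cases (41.0%) and rose in 8, from 2 to 10 kb in 68 of 168 (40.5%), and from 10 to 50 kb in 92 of 265 (34.7%). Genes with a Cbx7 member fell in 85 of 241 cases (35.3%) and rose in 48 (19.9%), close to the 100 of 253 (39.5%) and 38 (15.0%) of those without. Where a member had Nup153 DamID, 50 of 105 tested genes fell (47.6%) and 16 rose. Genes with a member that had Ring1B in NeuP went the other way, with 15 of 34 tested genes higher (44.1%) and 4 lower (11.8%), and a median of 0.94. None of these differences between gene classes was tested.

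Pluripotency genes made up 6 of the 10 largest falls in NeuP. Of a list of 31 pluripotency genes, 16 had a member (51.6%, against 2.66% of all 24016 genes), and in NeuP 14 of the 16 fell, Tet2 rose and Sox2 was not called. The share of the list near Oct4 peaks without Ring1B was not counted, so the 51.6% is not set apart from Oct4 peaks in general. Over the whole list 28 of 31 fell and 1 rose, so the genes with a member did as the list did. Without hairpin 2, or without hairpin 4, 10 of the 14 were called lower, and Jarid2, Klf2, Mycn and Tet1 were not. Bulk RNA cannot tell fewer cells of a type from less RNA per cell.

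**Figure D4:**
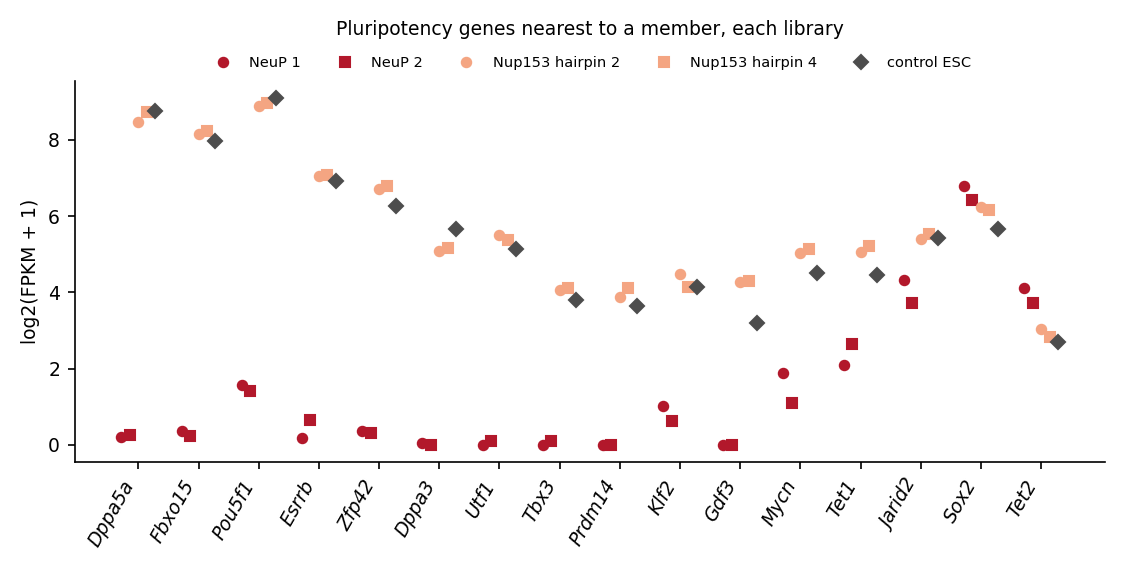
Level as log2(FPKM + 1) of the 16 pluripotency genes nearest to a member, in each NeuP library (red), each Nup153 hairpin library (orange) and the control ESC library (grey), ordered by the NeuP minus control difference. The NeuP values of the first 11 genes lie under 2, below every ESC value, and Tet2 at the right has its NeuP values on top.

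Pou5f1, which encodes Oct4, had 1 member at chr17:35640923-35641099, outside transcripts and 1966.5 bp upstream of its start, with Cbx7 and with Ring1B and Oct4 kept in every hairpin measured. Its level was 1.99 and 1.65 FPKM in NeuP, 476 and 501 FPKM in hairpins 2 and 4, and 543 FPKM in control ESC. The NeuP libraries were far below every ESC library (log2 difference -7.59 ± 0.21 SE, adjusted p = 0.00238, limma), and the hairpins were below control by -0.15, which was not called.

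Dppa5a, an RNA-binding protein specific to early embryonic cells, had a member 676.5 bp upstream of its start and another 3165.5 bp downstream. It had 0.147 and 0.195 FPKM in NeuP, 356 and 427 FPKM in the hairpins, and 432 FPKM in control ESC. Fbxo15, an F-box gene used as a marker of ESC, had a member 497.5 bp upstream and 0.277 and 0.183 FPKM in NeuP, 286 and 300 FPKM in the hairpins, and 248 FPKM in control ESC. Both fell in NeuP with no overlap of cell types (adjusted p = 0.00238, limma). Esrrb, an orphan nuclear receptor of the ESC network, had 0.126 and 0.570 FPKM in NeuP, 132 and 135 FPKM in the hairpins, and 119 FPKM in control ESC. Its member within 50 kb, at chr12:87811940-87812116 inside the gene, had no Ring1B peak in either hairpin and no Oct4 peak in hairpin 2. Zfp42, known as Rex1, had 0.277 and 0.252 FPKM in NeuP, 104 and 109 FPKM in the hairpins, and 76.6 FPKM in control ESC, with a member 13927.5 bp upstream. Esrrb and Zfp42 fell in NeuP (adjusted p = 0.00238 for each, limma).

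Dppa3, which protects methylation marks in the early embryo, had 0.038 and 0 FPKM in NeuP, 32.7 and 34.6 FPKM in the hairpins, and 50.0 FPKM in control ESC. Its member lay 1745.5 bp upstream, at chr6:122574609-122574785, in regions of Nup153 and of Oct4 DamID. Gdf3, a ligand of the TGF-beta family near it on the chromosome, had a member at chr6:122558551-122558727 inside its transcript. Gdf3 was at 0 and 0 FPKM in NeuP, 18.3 and 18.5 FPKM in the hairpins, and 8.16 FPKM in control ESC. Both genes fell in NeuP (adjusted p = 0.00238 and 0.00247, limma), while in the hairpins Dppa3 lay below control and Gdf3 above it, neither of them called.

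Utf1, a chromatin protein of ESC, had 0 and 0.071 FPKM in NeuP, 44.1 and 40.5 FPKM in the hairpins, and 34.5 FPKM in control ESC. Tbx3, a T-box factor, had 0.007 and 0.071 FPKM in NeuP, 15.8 and 16.2 FPKM in the hairpins, and 13.0 FPKM in control ESC. Prdm14, a regulator of ESC and germ cells, was at 0 and 0 FPKM in NeuP, 13.7 and 16.3 FPKM in the hairpins, and 11.6 FPKM in control ESC. Klf2, a zinc-finger factor, had 1.01 and 0.546 FPKM in NeuP, 21.3 and 16.8 FPKM in the hairpins, and 16.6 FPKM in control ESC. These 4 genes fell in NeuP (adjusted p from 0.00238 to 0.00473, limma). In each of them the hairpin libraries lay above the control library, by a log2 difference of only 0.013 for Klf2 in hairpin 4. Of all genes at 10 to 100 FPKM in control ESC, 2481 of 5535 lay above control in both hairpins.

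Mycn, a Myc-family factor, had 3 members and 2.72 and 1.16 FPKM in NeuP, 32.0 and 34.3 FPKM in the hairpins, and 21.7 FPKM in control ESC. The farthest of them, 45801.5 bp upstream, overlapped Ring1B by 81 bp and had Ring1B in neither hairpin, while the other members had it in both. Tet1, which oxidises methylcytosine, had 3.26 and 5.24 FPKM in NeuP, 32.4 and 35.9 FPKM in the hairpins, and 20.9 FPKM in control ESC. Tet2, a related enzyme, had 16.3 and 12.2 FPKM in NeuP, 7.30 and 6.09 FPKM in the hairpins, and 5.55 FPKM in control ESC. Tet1 fell and Tet2 rose in NeuP (adjusted p = 0.0140 and 0.0334, limma), and Tet2, like Tet1, was not called without hairpin 2 or without hairpin 4. Sox2, a factor of ESC and of neural progenitors, had 110 and 84.2 FPKM in NeuP, 75.1 and 70.4 FPKM in the hairpins, and 49.9 FPKM in control ESC (adjusted p = 0.0564, limma), and it was called higher with voom on recovered reads. Its member lay 4040.5 bp downstream of the start, at chr3:34552880-34553056.

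Polycomb genes near members were lower in NeuP where called. Of 23 genes for PRC1 subunits, Phc1 and Rybp had members, 2 each, and over the whole list 6 fell and 4 rose. Phc1, a polyhomeotic subunit, had 23.1 and 23.1 FPKM in NeuP, 119 and 105 FPKM in the hairpins, and 84.0 FPKM in control ESC, and it fell in NeuP (adjusted p = 0.00791, limma). Both of its members lay in 1 Ring1B peak of 2524 bp, and that nearer the start had Ring1B in NeuP. Rybp, a subunit of variant PRC1, had 1.77 and 3.04 FPKM in NeuP, 10.1 and 9.89 FPKM in the hairpins, and 8.88 FPKM in control ESC (adjusted p = 0.0234, limma). Of 11 PRC2 genes, Aebp2, Jarid2 and Suz12 had a member, and over the list 4 fell and 0 rose. Jarid2, a PRC2 cofactor also on the pluripotency list, had 19.0 and 12.2 FPKM in NeuP, 41.4 and 45.2 FPKM in the hairpins, and 42.0 FPKM in control ESC (adjusted p = 0.0385, limma). Suz12, a core subunit, had 19.2 and 40.5 FPKM in NeuP, 108 and 104 FPKM in the hairpins, and 108 FPKM in control ESC (adjusted p = 0.0498, limma). Aebp2 had 23.2 and 33.3 FPKM in NeuP, 41.9 and 42.3 FPKM in the hairpins, and 42.2 FPKM in control ESC and was not called. Without hairpin 2, none of Phc1, Rybp, Jarid2 and Suz12 was called, with adjusted p from 0.0888 to 0.221 (limma), and the same held without hairpin 4.

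A member was assigned to some genes of 3 lineage lists, where the share over all genes was 2.66%. Of 32 neural progenitor genes 3 had a member (9.38%, Dll1, Nes and Neurog1), of 21 mesoderm genes 0, of 17 endoderm genes 1 (5.88%, Col4a1), and of 13 trophoblast genes 2 (15.4%, Tfap2a and Tfap2c). In NeuP 19 of the 25 tested neural progenitor genes rose and 0 fell. Nes, the intermediate filament of neural progenitors, had 60.3 and 124 FPKM in NeuP, 8.45 and 8.95 FPKM in the hairpins, and 6.34 FPKM in control ESC (log2 difference 3.57 ± 0.50 SE, adjusted p = 0.0121, limma). Its member, inside the transcript and 3426.5 bp from its start at chr3:87778354-87778530, had Ring1B in control ESC, in both hairpins and in NeuP. Dll1, a Notch ligand, had 62.1 and 30.6 FPKM in NeuP, 7.39 and 4.16 FPKM in the hairpins, and 15.4 FPKM in control ESC, and neither comparison was called. Tfap2a, an AP-2 factor whose start lies in the widest Ring1B peak, had 3.91 and 5.73 FPKM in NeuP, 0.821 and 0.770 FPKM in the hairpins, and 0.414 FPKM in control ESC (adjusted p = 0.00966, limma). Tfap2c, its paralog, had 0.022 and 0.015 FPKM in NeuP, 27.3 and 21.9 FPKM in the hairpins, and 23.2 FPKM in control ESC (adjusted p = 0.00240, limma). Tfap2a rose and Tfap2c fell, each with no overlap between cell types. The calls of Nes and Tfap2a were lost without hairpin 2 (adjusted p = 0.117 and 0.0936, limma) and without hairpin 4.

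Fibroblast markers, of which the feeder cells could be a source, summed to 1718 and 942 FPKM in NeuP, 758 and 774 FPKM in the hairpins and 741 FPKM in control ESC. Of that list of 20 genes, 8 rose and 3 fell in NeuP, and 1 of 20, Fn1, had a member. Fn1, or fibronectin, had 15.4 and 12.6 FPKM in NeuP, 133 and 138 FPKM in the hairpins, and 131 FPKM in control ESC. The part of feeder cells in the member genes was not tested.

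By size, the 10 largest falls among called member genes were at Aqp3, Cdh1, Cldn4, Dppa3, Dppa5a, Esrrb, Fbxo15, Pecam1, Pou5f1 and Zfp42, and all 10 were called under each of the 10 alternative settings. Cdh1, or E-cadherin, had 0.071 and 0.056 FPKM in NeuP, 134 and 148 FPKM in the hairpins, and 201 FPKM in control ESC. Cldn4, a tight junction protein, had 0.034 and 0.068 FPKM in NeuP, 67.1 and 58.1 FPKM in the hairpins, and 89.6 FPKM in control ESC. Aqp3, a water and glycerol channel, had 0.071 and 0 FPKM in NeuP, 107 and 94.1 FPKM in the hairpins, and 140 FPKM in control ESC. Each fell in NeuP (adjusted p = 0.00238, limma), and in each the hairpins lay below the control library. Of all genes at 100 FPKM or more in control ESC, 383 of 549 lay below control in both hairpins. From 10 to 100 FPKM, the level of Cldn4, 2226 of 5535 did so.

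The 10 largest rises were at Abat, Id3, Jam2, Kiz, Lrrn2, Nes, Nxph1, Reep3, Srgap3 and Thap2. Nxph1, a secreted ligand of neurexins, had 23.4 and 30.2 FPKM in NeuP and was listed at 0 in all 3 ESC libraries. Reep3, a protein of the endoplasmic reticulum, had 54.8 and 46.6 FPKM in NeuP, 2.60 and 2.79 FPKM in the hairpins, and 2.07 FPKM in control ESC, and 2 members. Abat, the GABA transaminase, had 140 and 47.4 FPKM in NeuP, 1.05 and 1.25 FPKM in the hairpins, and 0.531 FPKM in control ESC. Id3, an inhibitor of bHLH factors, had 197 and 35.4 FPKM in NeuP, 5.76 and 3.73 FPKM in the hairpins, and 3.24 FPKM in control ESC, so the NeuP libraries differed widely (adjusted p = 0.0496, limma). Without hairpin 2, or without hairpin 4, only Nxph1 and Reep3 of these 10 were called.

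In the Nup153 knockdown no member gene was called. Limma called 0 of 494 member genes and 0 of 13750 genes (0%) at an adjusted p under 0.05, and voom on reads recovered from the FPKM also called 0. At an unadjusted p under 0.05, limma had 31 of 494 member genes above and 4 below control, against 617 and 197 of 13750 genes. In both directions together these were 7.09% of member genes and 5.92% of all genes. The spread between the NeuP libraries enters these p-values and the SE of every knockdown difference. With the hairpin and control libraries alone, both shares were far larger. With voom, 24 of 494 member genes (4.86%) passed in both directions together, against 3.51% of all genes. The median difference, knockdown minus control on the log2(FPKM + 1) scale, was 0.13 for member genes and 0.081 for all genes, and for genes near Oct4 peaks without Ring1B only it was 0.13. Relative to the 1 control library, 299 of 494 member genes lay above in both hairpins and 128 below, against 7567 and 4059 of 13750 genes. Level in control ESC moved with these counts. At 1 to 10 FPKM in control ESC, 129 of 173 member genes lay above and 20 below, against 3500 and 1308 of 5601 genes. At 10 to 100 FPKM they were 130 and 79 of 242, against 2481 and 2226 of 5535 genes. At 100 FPKM or more they were 11 and 24 of 39, against 97 and 383 of 549 genes. Both hairpins are set against the 1 control library, so its own deviation enters every one of these values. A size rule of 2-fold in both hairpins took in 5 member genes above control (0.305% of all genes did so) and 0 below (0.16% of all genes). With a pseudocount of 0.1 the rule took in 15 above (3.04%) and 1 below (0.202%), against 2.82% and 0.473% of all genes. On recovered reads it took in 19 above (3.85%) and 3 below (0.607%), against 4.84% and 0.647% of all genes. With a pseudocount of 5 it took in 0 member genes, and 1 gene above and 4 below over all genes.

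**Figure D5:**
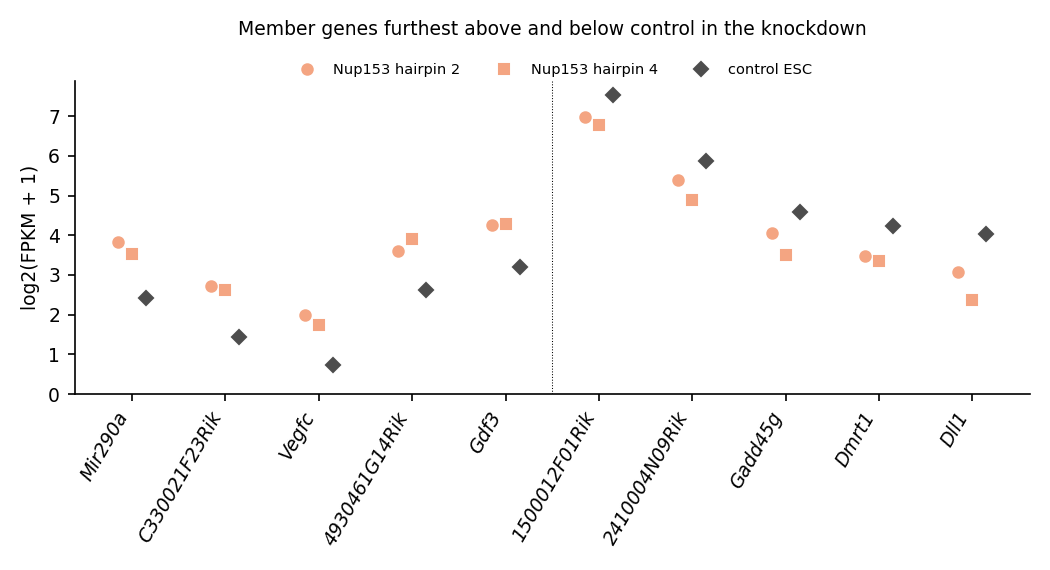
Level as log2(FPKM + 1) in hairpin 2 and hairpin 4 (orange) and in control ESC (grey) for the 5 member genes furthest above control (left of the dotted line) and the 5 furthest below it (right) by the mean of the hairpins. Both hairpin points lie on the same side of the control point in all 10 genes by the rule that chose them, and none of the 10 passed the adjusted test.

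The members furthest above control in the knockdown were near Mir290a, C330021F23Rik, Vegfc, 4930461G14Rik and Gdf3. Nodal, a TGF-beta family ligand of the epiblast, was close to them, with 20.0 and 19.6 FPKM in the hairpins and 9.08 FPKM in control ESC, a log2 difference of 1.05 ± 0.16 SE (unadjusted p = 0.00349, limma). Gdf3, its relative, differed by 1.08 ± 0.16 SE. Vegfc, a growth factor of lymphatic vessels, had 3.00 and 2.35 FPKM in the hairpins and 0.653 FPKM in control ESC. Nodal had a member at chr10:60878739-60878915, 1893.5 bp upstream, which kept Oct4 in hairpin 2 and Ring1B in both hairpins and lay in Nup153 and Oct4 DamID regions. The Gdf3 and Vegfc members likewise kept Ring1B in both hairpins and Oct4 in hairpin 2, and lay in no DamID region. None of these 3 had Cbx7. The members near Mir290a and C330021F23Rik had Cbx7, and that near 4930461G14Rik did not. All of the members named here kept Ring1B in both hairpins, and that near C330021F23Rik had no Oct4 peak in hairpin 2.

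Furthest below control were Dll1, Dmrt1, Gadd45g, 2410004N09Rik and 1500012F01Rik. Dll1 had the values given above, a difference of -1.31 ± 0.57 SE, and this SE also carries the spread between its NeuP libraries. Dmrt1, a DM-domain factor of the testis, had 10.1 and 9.27 FPKM in the hairpins and 17.8 FPKM in control ESC, a difference of -0.81 ± 0.17 SE. Gadd45g, a stress-response gene, had 15.6 and 10.3 FPKM in the hairpins and 23.0 FPKM in control ESC. The Dmrt1 member had Ring1B in neither hairpin, and that of Gadd45g had it in hairpin 2 and in NeuP. The members of Dll1, 2410004N09Rik and 1500012F01Rik had Ring1B in both hairpins. All of these members kept Oct4 in hairpin 2. None of the differences was called.

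In the knockdown, genes with a member lacking an Oct4 or Ring1B peak in a hairpin had medians near that of all member genes. A gene is counted if any of its members lacked the peak, also where another member had it. For the 136 tested genes with a member that had no Oct4 peak in hairpin 2, the median knockdown difference was 0.11, and 84 lay above and 29 below control in both hairpins. For the 129 with a member that lacked Ring1B in at least 1 hairpin, it was 0.12, with 75 above and 34 below. Where a member lay in a Nup153 DamID region, it was 0.17 over 105 genes, with 64 above and 26 below, and in an Oct4 DamID region 0.19 over 181 genes, with 117 above and 41 below. Over all 494 tested member genes the median was 0.13, with 299 above and 128 below. Over all 13750 tested genes it was 0.081, with 7567 above and 4059 below. None of these differences was tested.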

How the data were processed

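The authors deposited RNA values as FPKM per transcript, 1 transcript per gene symbol, and peaks as lists of positions. Per the submitters' processing notes, CASAVA 1.8.2, Bowtie2 2.1.0, STAR 2.2.0c, HOMER 4.6, edgeR and the mm9 build were used. HOMER findPeaks made each ChIP list from 1 library, at a fold of at least 4.00 over an ESC library named IgG, and gave Oct4 peaks a fixed width, per the file headers. The sources used here do not say how DamID replicates and GFP were combined. The 9 lists hold positions, with no score used.

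Peaks were compared by overlaps of at least 1 bp in Python 3.11.15 (numpy 2.4.6, pandas 2.3.3), with 95% Wilson intervals for shares, covering only counting error. Depths and reads were recovered from the step of 1 read in low FPKM values, which came out whole within 0.1 in 100% of cases tested. Genes with 1 FPKM or more in 1 or more libraries were fitted with limma 3.58.1 in R 4.3.3 on log2(FPKM + 1), in 1 fit of 5 libraries and 3 groups, with two-sided tests, Benjamini-Hochberg adjustment over all genes and a threshold of 0.05. The fit was run on simulated data with the same independent spread in every library. That run does not test the assumption that the lone control library varies like the others. Hairpins 2 and 4 stood as 2 replicates of the knockdown. Separate cultures are not stated in the labels, so p-values measure the spread between these samples only. Named genes were those in a marker list, the 10 largest rises and falls in NeuP among called genes, the 5 largest on each side in the knockdown with the same sign in both hairpins, the 5 highest in control ESC, those with 2 or more members, and others where said. The members and the gene lists were chosen with earlier results of these data known. The list of formative and primed epiblast genes is not reported here. Columns of other samples numbered 0. RefSeq promoters and microRNAs (GRCm38.p6) gave sequence only. Alternatives were other overlap rules, other pseudocounts, no filter, quantile scaling, voom on recovered reads, fewer libraries and other gene assignments. Figures were drawn with matplotlib 3.10.9.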

Additional observations from a re-analysis of the deposited data

How the results depend on the processing

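Other overlap rules (peak centre or whole peak inside, or a gap of up to 500 bp) left the members and their overlaps within 1.5 times the counts given. The number of members near a start was 31 at 1 kb and 167 at 5 kb, against 72 at 2 kb. NeuP counts of member genes depended on the libraries in the fit. Higher calls ranged from 3 to 145 and lower calls from 78 to 298 when 1 hairpin or NeuP library was left out, the fewest without a hairpin, while over all 13750 genes higher calls ranged from 318 to 4692 and lower calls from 1504 to 6629. The member medians ranged from -0.78 to -0.52. With the NeuP and control libraries alone, 3 were higher (0.607%) and 87 lower (17.6%), against 1.75% and 11.8% of all genes. With members within 2 kb only, 8 were higher and 25 lower (median -0.88), and with starts inside the Ring1B peak 2 and 4 (median -0.95), from fewer genes. Without a filter on low values 57 of 638 were higher (8.93%) and 159 lower (24.9%, median -0.26), against 7.86% and 14.6% of all genes (median 0). A pseudocount of 5 gave a NeuP median of -0.34 and quantile scaling -0.41, with all genes at -0.14 and -0.06. In the knockdown 0 member genes were called under each alternative except no filter on low values, which called 0 higher and 3 lower (0.47%), against 0.229% and 0.729% of all genes. Its median was 0.16 and 0.089 with pseudocounts of 0.1 and 5, 0.075 with no filter, 0.061 with quantile scaling, 0.14 with voom, from 0.13 to 0.14 with 1 hairpin or NeuP library left out, 0.23 with members within 2 kb and 0.19 with starts inside the Ring1B peak. The 2-fold rule gave 15 higher and 1 lower with a pseudocount of 0.1, 0 higher with 5, 1 and 1 with quantile scaling (0.202% each, against 0.167% and 0.327% of all genes), 19 and 3 with voom, 3 higher within 2 kb and 0 higher with starts inside the peak. The cause of these shifts was not tested, beyond fewer genes or libraries where stated. No call of a named gene changed direction. No paired analysis was possible because the RNA groups compared share fewer than 2 replicate numbers and the peak lists have no column per replicate. Motifs in peaks and a stricter peak threshold were not run, since no mm9 genome and no peak heights were used here. Depth, 4.99 M tags for Ring1B in control ESC, and 1 library per condition limit the peak comparisons.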

Other observations

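By chromosome, the share of Oct4 peaks that had Ring1B ran from 54.5% (30 of 55, Wilson interval 41.5 to 67.0) on chromosome 15 to 82.4% on chromosomes 19 (28 of 34, 66.5 to 91.7) and X (14 of 17, 59.0 to 93.8). Chromosome 6, which carries Dppa3, Gdf3, Phc1, Rybp and Aebp2, held the most members, 95 of its 130 Oct4 peaks (73.1%). The 8 Oct4 peaks on unplaced sequence included 1 member. The differences between chromosomes were not tested.

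Pairs of members close to 1 gene differed in what they kept at Aebp2 and Dppa5a and were alike in this at Klf2. At Aebp2, the member 2494.5 bp upstream had no Ring1B peak in hairpin 2 and lay in an Oct4 DamID region, and that 20949.5 bp upstream had Ring1B in both hairpins and Cbx7. At Dppa5a the upstream member kept Oct4 in hairpin 2 and Ring1B in both hairpins without Cbx7, whereas the downstream one had Cbx7, no Oct4 peak in hairpin 2 and no Ring1B peak in hairpin 4. At Klf2 both members kept Oct4 and Ring1B and had Cbx7, and that 15382.5 bp downstream lay in both kinds of DamID region. Members of 1 gene are not independent measurements of it.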
